A study of Mus musculus with 73 samples.

Results

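Immediate early genes are the genes that a cell switches on within minutes of a stimulus, from factors already present and without new protein synthesis. The 10 described here are Fos, Fosb, Jun, Junb, Jund, Egr1, Atf3, Ier2, Nr4a1 and Dusp1. They were chosen by name, and all 10 were among the 55291 gene rows of the count table. The cells were 73 single inner hair cells, which signal sound to auditory neurons, picked by hand at postnatal day 14. All came from 1 genotype, in which Atoh1Cre/+, active in hair cells, acted on Casz1flox/flox and on Rosa26-CAG-Loxp-stop-Loxp-3xGFP(Ai47). The other Rosa26 allele, Rosa26-CAG-Frt-stop-Frt-tdTomato, was switched on by the inner hair cell driver Fgf8-Flpo/+, and cells with GFP and tdTomato together were taken as Casz1 -/-. Casz1 encodes a zinc-finger transcription factor, and the study asks how its loss alters inner hair cell fate.

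No animal is named in the labels. The 73 cells therefore count as 1 sample without replicates, and no p-value is given. Spreads and correlations over cells describe these libraries. The wild-type inner hair cells of the study's design were not analysed here, so no level below can be attributed to the loss of Casz1. Totals ranged from 11027945 to 37183702 counts (median 17333640), with 6954 to 10688 genes counted per cell and a mitochondrial (mt) share of 1.81% to 13.0% (median 6.06%). Of 12 general hair cell markers, 9 reached 10 CPM (counts per 1000000 of a library's gene counts) in all 73 cells. So did 4 of 10 inner hair cell markers, among them the glutamate transporter Slc17a8, whereas Atp2a3 of the same list reached it in 53. Otof and Calb2 stand in both lists, so the lists are not independent. Of 12 outer hair cell markers, 2 reached 10 CPM in all cells, and the list summed to 647 to 21100 CPM per cell (median 4640). Of 64 markers of the other cell types of the cochlea (neurons and glia, supporting, strial and mesenchymal cells, endothelium, blood and immune cells), 53 reached 10 CPM in fewer than 10 cells. Those 53, called rare below, summed to 0 to 1540 CPM per cell (median 44), and Cx3cr1, Tyrobp, Pou3f4 and Kcne1 had no count in any cell. They were picked for being rare, so their low sum follows from that choice and is no check of purity. Neuron markers, of which 4 of 8 were rare, summed to 71.5 to 1600 CPM per cell (median 477), the highest median of these lists. Casz1 reads were at 10 CPM or more in 55 cells. The labels do not say which exons were removed, so this level does not check the deletion.

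Fos and Jun family proteins pair through leucine zippers to form AP-1, which binds DNA at TGANTCA sites. Fos proteins need a Jun partner, whereas Jun proteins can also pair among themselves or with ATF proteins such as Atf3. Egr1 is a zinc-finger activator, Nr4a1 an orphan nuclear receptor, Ier2 a small nuclear protein, and Dusp1 a nuclear phosphatase that inactivates the MAP kinases which induce the other genes. Fos and Egr1 are commonly used as marks of recent activity or injury, and warm enzymatic digestion of tissue is known to induce this gene class. Per the labels' protocols, these cochleae were digested for 20 min at 37 °C in papain with DNase I and for 20 min at 25 °C in protease with dispase. All 73 cells shared that treatment, so its part in the levels was not tested.

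The promoters of 4 members are shown because they span the patterns described below: Fos was either high or almost absent, Jun was the highest member per kilobase, Junb differed in direction from Fos and Jun, and Dusp1 alone among the windows found holds the full cyclic AMP response element TGACGTCA. Each window runs from 250 bases before the start to 50 bases after it, 5′ to 3′ on the gene's strand, from RefSeq on GRCm38.p6. The windows are chr12:85473640-85473939 (plus strand), chr4:95052173-95052472 (minus strand), chr8:84978699-84978998 (minus strand) and chr17:26508423-26508722 (minus strand). Capitals mark letters that match TGACGTCA, its shorter core TGACG, or the TATA box TATAAA, on either strand.
Fos: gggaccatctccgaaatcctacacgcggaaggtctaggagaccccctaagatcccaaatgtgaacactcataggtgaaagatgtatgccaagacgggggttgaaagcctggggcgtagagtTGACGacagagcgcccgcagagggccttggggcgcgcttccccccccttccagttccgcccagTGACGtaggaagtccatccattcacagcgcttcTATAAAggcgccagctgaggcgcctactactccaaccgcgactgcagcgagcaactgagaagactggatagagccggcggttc
Jun: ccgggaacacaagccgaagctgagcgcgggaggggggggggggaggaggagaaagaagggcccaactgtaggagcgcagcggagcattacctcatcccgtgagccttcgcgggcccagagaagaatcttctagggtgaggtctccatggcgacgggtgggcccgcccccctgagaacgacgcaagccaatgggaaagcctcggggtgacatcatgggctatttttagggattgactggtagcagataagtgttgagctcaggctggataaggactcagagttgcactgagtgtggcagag
Junb: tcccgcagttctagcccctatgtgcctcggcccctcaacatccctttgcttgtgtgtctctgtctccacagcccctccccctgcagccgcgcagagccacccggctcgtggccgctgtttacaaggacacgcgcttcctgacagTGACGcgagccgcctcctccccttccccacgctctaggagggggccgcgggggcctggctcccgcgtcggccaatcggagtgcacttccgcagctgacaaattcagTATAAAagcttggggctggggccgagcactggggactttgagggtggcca
Dusp1: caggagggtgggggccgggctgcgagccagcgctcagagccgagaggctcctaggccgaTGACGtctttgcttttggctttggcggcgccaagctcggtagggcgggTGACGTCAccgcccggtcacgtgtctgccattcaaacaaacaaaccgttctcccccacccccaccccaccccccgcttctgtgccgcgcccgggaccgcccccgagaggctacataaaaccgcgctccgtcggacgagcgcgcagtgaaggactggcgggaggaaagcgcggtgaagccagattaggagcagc

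A window was found for 8 of the 10 members. That of Jund lies upstream of the gene's start in GENCODE. Those of Atf3, Nr4a1 and Dusp1 lie inside the gene's GENCODE span given below, downstream of its outermost start. TGACG, which overlaps TGACGTCA, was present in 6 of the 8 (Fos, Fosb, Junb, Atf3, Nr4a1 and Dusp1), against 20.8% of 32851 promoters of the same length. TATAAA was present in 2 of the 8, Fos and Junb, against 13.6% of promoters. Counted from the start used for the window, the match begins at -33 in Fos and at 0 in Junb. For Junb that start lies upstream of the gene's start in GENCODE. TGACGTCA was present in 1 of the 8, against 1.79%, and TGANTCA in 0 of the 8, against 7.81%. The CArG box, the site of serum response factor, was in 0 of the 8 windows and in 1.63% of promoters. Its well-known copy in Fos lies upstream of this window. A match describes letters and is not evidence of binding, and the absence of a match covers this window only.

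By gene structure (mm10, GENCODE vM21), Jun (chr4:95049034-95052222, minus strand), Junb (chr8:84974484-84978718, minus strand), Jund (chr8:70698949-70700616, plus strand) and Ier2 (chr8:84661331-84662852, minus strand) have 1 exon in their longest coding transcript. Fos (chr12:85473890-85477273, plus strand), Fosb (chr7:19302696-19310051, minus strand), Atf3 (chr1:191170296-191218039, minus strand) and Dusp1 (chr17:26505590-26562128, minus strand) have 4 exons, Egr1 on chromosome 18 has 2, and Nr4a1 (chr15:101254269-101274795, plus strand) has 8. No source says that reads were counted by strand, so reads where exons of opposite strands overlap cannot be assigned with certainty. Such overlaps join Jun with Junos, Junb with Prdx2, Jund with Gm11175 and Dusp1 with Ergic1. Junos reached 10 CPM in 4 cells, Gm11175 had no count in any cell, and Ergic1 reached 10 CPM in 29 cells. Prdx2, a peroxiredoxin, had a median of 904 CPM and was present in all 73 cells, and its rank correlation with Junb was -0.18.

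Jun was the member that every cell held at a high level. It ranged over 144, 918 and 3711 CPM (lowest, median and highest cell), and 33 cells were at 1000 CPM or more. Jun encodes c-Jun, the main transactivating partner of Fos. Detection is taken as 10 CPM, or 110 counts where the library was shallowest and 372 where it was deepest. By that measure Jun and Jund were the 2 members present in all 73 cells, a share of 100% with an exact Clopper-Pearson 95% interval of 95.1% to 100% that covers counting error over cells only. Jund, the Jun family member with the steadiest expression in most tissues, ranged over 13.1, 141 and 410 CPM. Junb, which can oppose c-Jun at AP-1 sites, ranged over 0.222, 378 and 1625 CPM and was present in 71 cells (97.3%, 90.5% to 99.7%).

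Fos, in contrast, was present in some cells and nearly absent from others. Its values ran over 0, 159 and 2560 CPM, with 47 cells at 10 CPM or more (64.4%, 52.3% to 75.3%) and 7 cells at 1000 CPM or more. Of the other 26 cells, 22 were below 1 CPM and 4 lay between 1 and 10 CPM, so few cells had an intermediate level. No Fos count was found in 9 cells, where a limit of 3 counts is 0.272 CPM for the lowest total and 0.0807 CPM for the highest. Fosb, its close relative, ran over 0, 97.5 and 844 CPM and was present in 61 cells (83.6%, 73.0% to 91.2%). Both genes peaked in library 21, at 2560 CPM of Fos and 844 CPM of Fosb. They were present together in 40 cells, Fos without Fosb in 7, Fosb without Fos in 21, and neither in 5. Fos was thus in 65.6% of cells with Fosb and in 58.3% of cells without it, both near its 64.4% of all cells.

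Egr1 ran over 0, 660 and 2842 CPM and was present in 67 cells (91.8%, 83.0% to 96.9%). It reached 1000 CPM in 21 cells. Egr1 was present in nearly all cells with Fos and in most cells without it. Both were held by 46 cells, Fos alone by 1, Egr1 alone by 21 and neither by 5. That is Fos in 68.7% of cells with Egr1 and in 16.7% of the 6 cells without it. Atf3, a stress-induced repressor of the ATF family, ran over 0, 129 and 984 CPM and was present in 54 cells (74.0%, 62.4% to 83.5%). Its highest cell, library 54, had no Fos count and 1662 CPM of Jun. Fos and Atf3 were present together in 33 cells, Fos alone in 14, Atf3 alone in 21 and neither in 5. That is Fos in 61.1% of cells with Atf3 and in 73.7% of cells without it.

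Ier2 and Dusp1 were also present in most but not all cells. Ier2 ran over 0, 72.4 and 1096 CPM and was present in 49 cells (67.1%, 55.1% to 77.7%), with no count in 20. Its highest cell, library 10, also held 691 CPM of Fos and 848 CPM of Egr1, but 0.22 CPM of Junb, the lowest of all cells. Fos and Ier2 were present together in 35 cells, Fos alone in 12, Ier2 alone in 14 and neither in 12. Dusp1 ran over 0, 67.7 and 1222 CPM and was present in 47 cells (64.4%, 52.3% to 75.3%), with no count in 8. Nr4a1 was the rarest member, with a median of 0 and a highest value of 138 CPM. It was present in 12 cells (16.4%, 8.79% to 27%) and had no count in 54. Of the 12 cells with Nr4a1, 9 also held Fos, which was present in 64.4% of all cells.

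**Figure D1:**
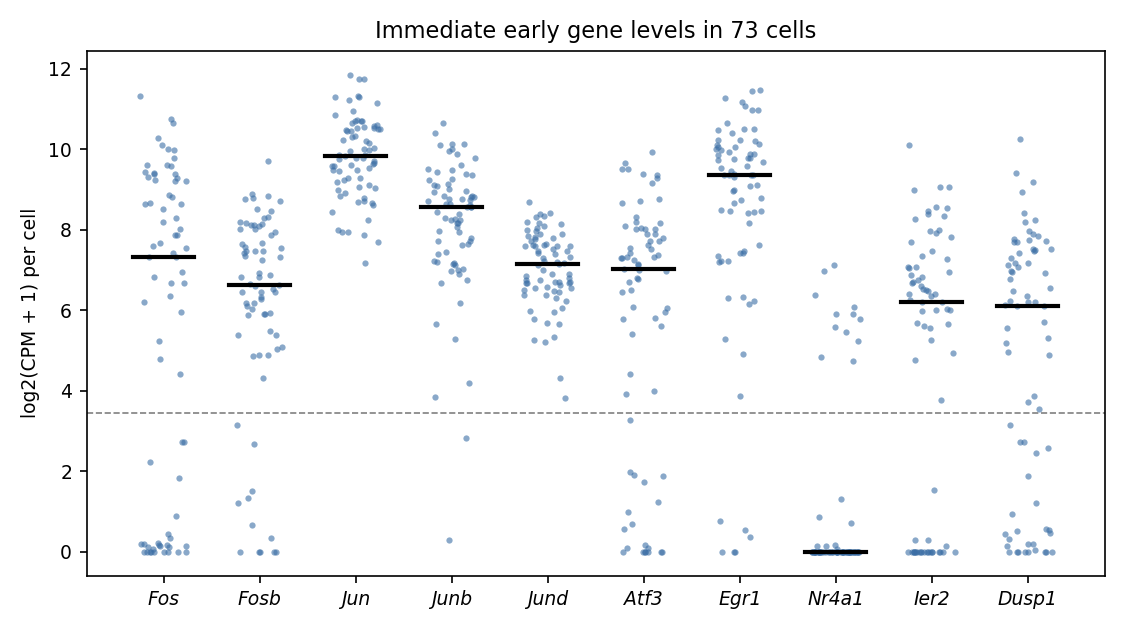
Level of each of the 10 immediate early genes in each of 73 cells, in CPM on a log scale after adding 1, with 1 point per cell, a bar at the median and a dashed line at 10 CPM. Jun lies at 144 CPM or more in all cells, Fos splits into cells at 10 CPM or more (47) and cells below 1 CPM (22), and Nr4a1 is at 0 counts in 54 cells.

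Levels of different genes were set side by side only per kilobase of exon. In CPM per kb the medians, with lower and upper quartiles over the 73 cells, were 288 for Jun (174 to 468), 164 for Junb (73.0 to 240), 147 for Egr1 (38 to 238), 84.4 for Jund (55.4 to 125) and 67.5 for Fos (0.0667 to 251). The other members followed with 59.7 for Atf3 (4.00 to 119), 47.6 for Ier2 (0 to 88.8), 20.4 for Dusp1 (0.282 to 53.2), 15.6 for Fosb (6.54 to 39.1) and 0 for Nr4a1 (0 to 0.0153). The quartile ranges of neighbours in this order overlapped in every case except Fosb and Nr4a1, so most neighbouring places are not separated by the spread over cells.

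A cell held a median of 8 of the 10 members at 10 CPM or more. The lowest was 3, in library 4, and all 10 were present in 5 cells. Summed over the members, cells held 313 to 9185 CPM (median 3115), which is 0.0313% to 0.918% of a cell's counts. Jun alone made up 7.47% to 78.1% of that sum (median 31.9%). The mean of log2(CPM + 1) over the 10 members, used below as a score, ranged from 2.44 to 8.51 (median 6.20). Library 3, the lowest, held 244 CPM of Jun, 28.4 CPM of Fosb, 13.4 CPM of Junb, 13.1 CPM of Jund and 13.7 CPM of Egr1, and no count of the other members. Library 19, the highest, held 2285 CPM of Jun, 2163 CPM of Egr1, 1626 CPM of Fos, 679 CPM of Dusp1 and 628 CPM of Atf3, but no Nr4a1. The 5 lowest libraries by score (3, 4, 32, 2 and 26) held 13117177 to 24543427 counts, so low scores were not limited to shallow libraries.

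Among the 8619 genes that averaged at least 10 CPM, the members were mostly very uneven for their level. Squared coefficients of variation were compared with the trend on mean level. By the excess over that trend, Fos stood at the 99.7th percentile, Egr1 at 99.5, Jun and Dusp1 at 99.2, Atf3 and Ier2 at 99.0, Junb at 98.5 and Fosb at 96.5. Nr4a1 stood at 66.7. Jund stood at 11.2, with a coefficient of variation of 0.562 against 1.40 for Fos, so its spread was small for a gene of its level.

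**Figure D2:**
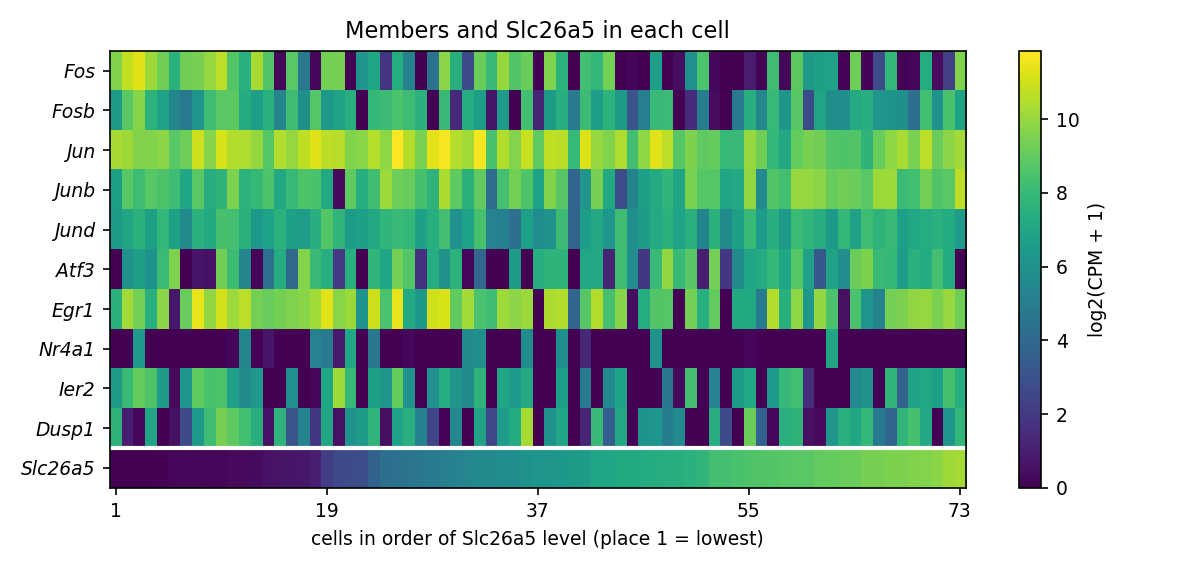
Level of the 10 members and of Slc26a5 in each of 73 cells as log2(CPM + 1), with cells ordered from low to high Slc26a5. Jun and Jund are above 10 CPM in all columns, the empty columns of Fos are more frequent toward the cells with high Slc26a5, and the empty columns of Ier2 and Atf3 overlap those of Fos in part (12 cells lack both Fos and Ier2, and 5 lack both Fos and Atf3).

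The members tended to be high in the same cells, but loosely and not as 1 block. Over the 45 pairs, Spearman's rank correlation (rho) across the 73 cells had a median of 0.24 (range -0.25 to 0.61). Of the pairs 44 were positive, against 51.4% of all 37139271 pairs among the 8619 genes. At 0.3 or more, a limit chosen after the values were seen, were 18 of the 45 pairs, against 0.999% of all pairs. At 0.5 or more was 1 pair, against 0.0264%, and at -0.3 or less were 0, against 0.845%. The cells share 1 group and 1 protocol, and depth and RNA content differ between them, so these values are descriptions.

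Jun and Egr1 were the closest pair, with a rho of 0.61 (Pearson's r of log2 values 0.57), and each was the other's nearest of the 8618 other genes. Egr1 with Ier2 had 0.48, Fos with Ier2 0.46, Fosb with Ier2 0.45, Fosb with Egr1 0.44 and Fos with Egr1 0.42. Fosb had 0.40 with Jun and 0.37 with Fos. The AP-1 partners Fos and Jun themselves had 0.31. The 10 pairs among Fos, Fosb, Jun, Egr1 and Ier2, a group picked after the values were seen, ran from 0.30 to 0.61 (median 0.43).

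Atf3 and Jund had a rho of 0.48, each ranking 3 among the genes most like the other. Atf3 had 0.27 with Junb, but 0.14 or less with the other 7 members, with 0.12 for Egr1, 0.10 for Jun and -0.25 for Fos, the only negative pair. Jund was tied more widely, with 0.42 for Fosb, 0.40 for Ier2 and 0.33 each for Jun and Egr1. Against the mean of the other 9 members Atf3 had 0.04, the lowest, whereas Egr1 had 0.59, Fosb 0.56 and Jun 0.51. Within the Jun family, Jund had 0.36 with Junb and 0.33 with Jun, whereas Jun and Junb had 0.09. Fos had 0.27 with the mean of the others, below Jund at 0.43, with 0.05 for Fos and Jund themselves.

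**Figure D3:**
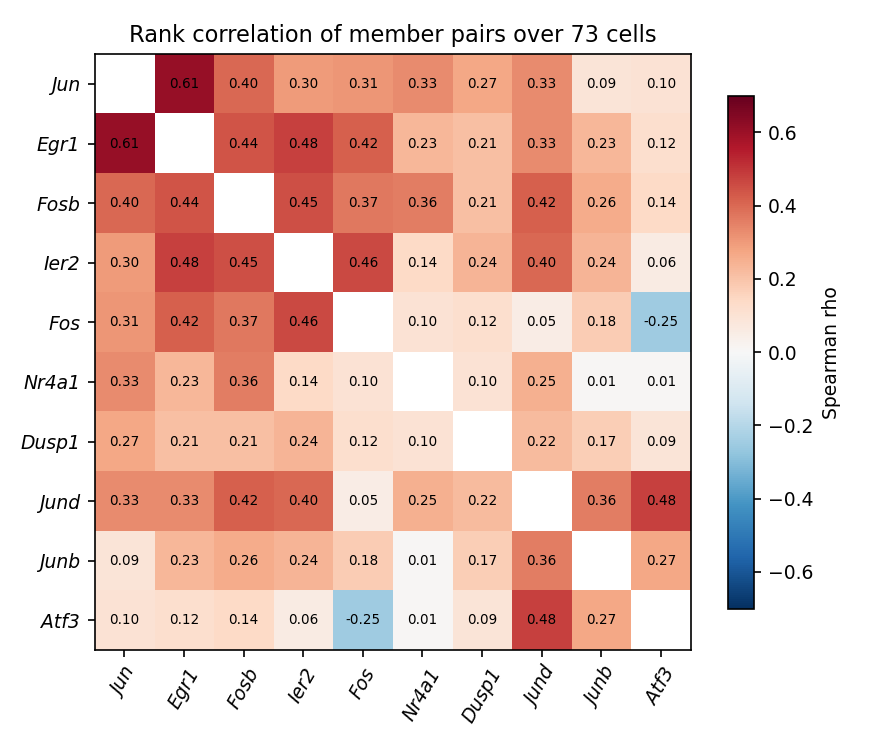
Spearman's rank correlation over 73 cells for the 45 pairs of members, as a matrix with its value in each field. Jun with Egr1 (0.61) is the highest field, the fields among Fos, Fosb, Jun, Egr1 and Ier2 run from 0.30 to 0.61, Atf3 is highest with Jund (0.48), and Fos with Atf3 (-0.25) is the only negative one.

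Slc26a5, the gene of the outer hair cell motor prestin, was present at 10 CPM or more in 51 of these inner hair cells (median 73.1 CPM, highest 1229 CPM). The members differed in their relation to it. Fos had a rho of -0.46 with Slc26a5 (Pearson's r of log2 values -0.44), at the 1.31 percentile of all genes, and Jun had -0.36, at 3.78. Egr1 had -0.27, Fosb -0.23, Nr4a1 -0.19 and Ier2 -0.18. Jund with -0.01 and Dusp1 with 0.03 showed no direction. Atf3 had 0.17 and Junb 0.28, which placed Junb at the 92.8 percentile.

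In counts, 7 members were below 0 and 3 above. Jund, the member below 0 that lay nearest to it (-0.01), stood at the 55.4 percentile, so about 55.4% of all genes lay at or below that value. The median was -0.18 over the members and -0.03 over all genes. At -0.5 or less were 0 members, against 0.87% of all genes, and at 0.5 or more 0, against 1.35%. At -0.3 or less, the limit chosen later, were 2 of 10, against 6.8%, and at 0.3 or more 0 of 10, against 6.17%. As presence, Fos was in 54.9% of the 51 cells with Slc26a5 (exact interval 40.3% to 68.9%) and in 86.4% of the 22 cells without it (65.1% to 97.1%). For Junb, the cell with the most Slc26a5, library 64 at 1229 CPM, was also the highest, at 1625 CPM. That cell held 787 CPM of Fos as well, so high prestin and Fos were not exclusive.

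Presence of the other members differed less between the cells with and without Slc26a5. Their intervals overlapped, but such intervals cover counting error over cells only, so overlap is no test of a difference. Fosb was in 78.4% of the 51 cells with Slc26a5 (64.7% to 88.7%) and in 95.5% of the 22 cells without it (77.2% to 99.9%), and Egr1 in 90.2% (78.6% to 96.7%) and 95.5% (77.2% to 99.9%). Ier2, which follows Fos in level, was in 64.7% of cells with Slc26a5 (50.1% to 77.6%) and in 72.7% of cells without it (49.8% to 89.3%). Atf3 and Dusp1 leaned the other way: Atf3 was in 76.5% of cells with Slc26a5 (62.5% to 87.2%) and in 68.2% without it (45.1% to 86.1%), and Dusp1 in 66.7% (52.1% to 79.2%) and 59.1% (36.4% to 79.3%). The intervals of Fos, given above, overlapped by a few percent.

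Properties of the library moved with Slc26a5 too: its rho was -0.49 with mt share, 0.61 with the share of counts in ribosomal protein genes, -0.30 with the number of genes with a count and 0.27 with total counts. With the number in a library's title Slc26a5 had 0.31. Correction regressed the ranks of such a property out of both genes' ranks. Corrected for mt share, Fos had -0.28 with Slc26a5, Jun -0.31, Egr1 -0.17, Fosb -0.20, Junb 0.16 and Atf3 0.00. Corrected for the ribosomal protein share, Fos had -0.29, Jun -0.24 and Junb 0.08. Corrected for total counts Fos had -0.40, and for genes with a count -0.38. Corrected for the number in the title, Fos had -0.45, Jun -0.40, Egr1 -0.38, Fosb -0.30, Jund -0.11, Junb 0.18 and Atf3 0.05. Without the 25 cells where any of the 53 rare markers was at 50 CPM or more, Fos had -0.61 and Junb 0.10. Without libraries 5 and 67, which held the most reads of such markers, Fos had -0.48 and Junb 0.28. Whether cell quality or another shared property takes part in the relation with Slc26a5 was not tested.

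Atp2a3 and Nfkbia are named after their values were seen. The inner hair cell calcium pump gene Atp2a3, with a rho of -0.77 with Slc26a5, had the reverse signs: 0.40 with Fos and -0.41 with Junb. Nfkbia, the NF-kB inhibitor, had 0.60 with Slc26a5, 0.58 with Junb and -0.38 with Jun.

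**Figure D4:**
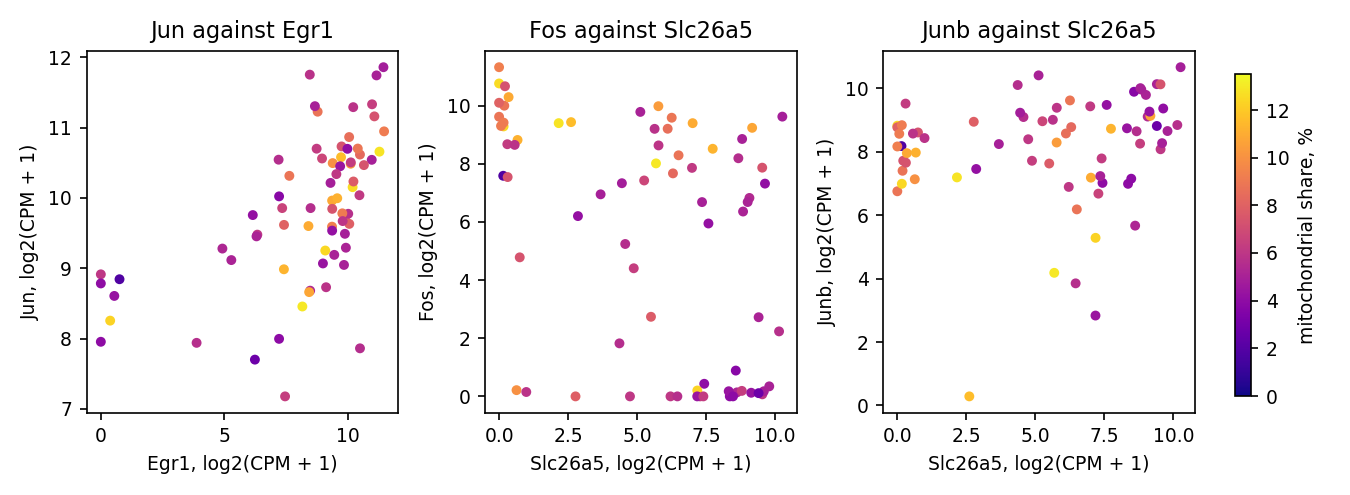
3 scatter plots of 73 cells as log2(CPM + 1), with each point coloured by the cell's mt share in percent: Jun against Egr1, Fos against Slc26a5 and Junb against Slc26a5. The rank correlations are 0.61, -0.46 and 0.28, and cells without Fos lie mostly where Slc26a5 is present.

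Of the library properties, mt share separated the members most. Fos had a rho of 0.51 with it, at the 99.6 percentile of all genes, and was the 1 member at 0.5 or more, against 0.522% of genes. Egr1 had 0.26 and Jun 0.20, whereas Atf3 had -0.34, Junb -0.29 and Jund -0.27. At the 0.3 limit that makes 1 member above (Fos), against 4.33% of genes, and 1 below -0.3 (Atf3), against 5.62%. With total counts Fos had -0.39 and Atf3 0.33, 1 member on each side of the 0.3 limit, against 2.46% of genes at -0.3 or less and 2.15% at 0.3 or more. The value of Fos with total counts was -0.20 by Pearson's r. With the number of genes with a count, Fos had 0.47, Fosb 0.34 and Jun 0.31, which makes 3 of 10 at 0.3 or more against 3.86%. With the ribosomal protein share Fos had -0.41, at -0.3 or less together with 6.88% of genes, Jun -0.30, and Junb 0.35, at 0.3 or more together with 5.04%. Fos was thus higher in cells with fewer counts, more genes and a larger mt share, and Atf3 showed the opposite sign for total counts and mt share. The part of these properties in the members' levels was not tested.

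The score over all 10 members had 0.15 with mt share and -0.04 with total counts, since the members' signs differ. The number in a library's title had 0.38 with Atf3, 0.38 with Junb and 0.27 with the score. Members at 0.3 or more with that number were 2 of 10, against 2.97% of genes. What the number stands for is not given in the labels. In libraries 1 to 20, a split made after the values were seen, Ier2 was below 10 CPM in 12 of 20 cells, Fos in 7, and the median score was 5.67. In libraries 21 to 73, Ier2 was below 10 CPM in 12 of 53 cells, Fos in 19, and the median score was 6.43.

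**Figure D5:**
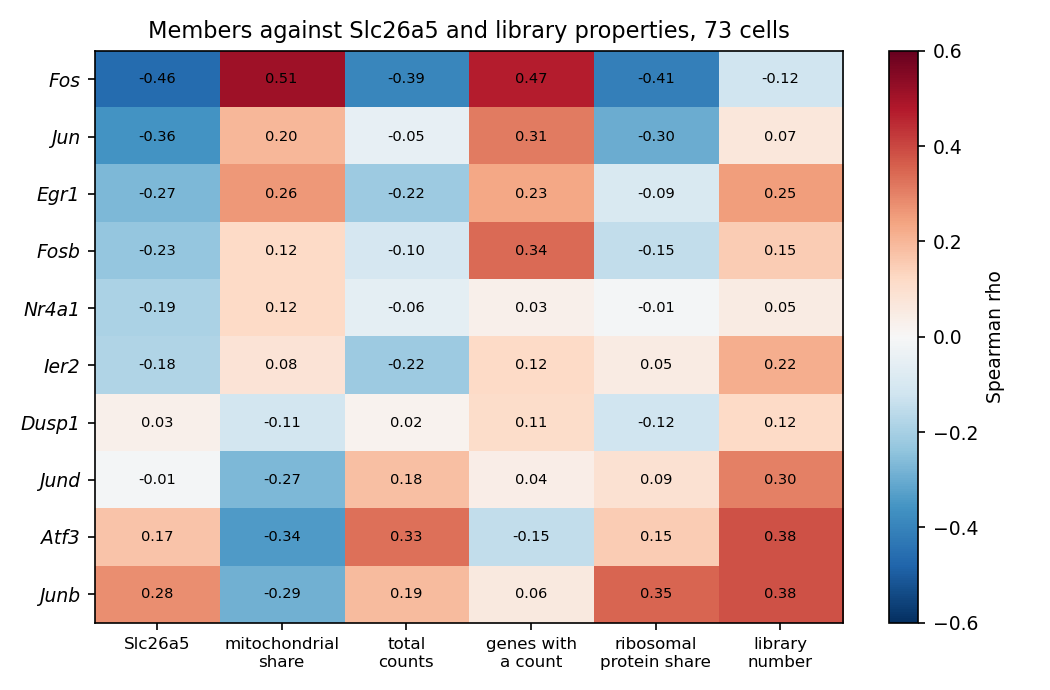
Spearman's rank correlation over 73 cells of each member with Slc26a5 and with 5 properties of the library (mt share, total counts, genes with a count, ribosomal protein share and library number). Fos and Atf3 have opposite signs for mt share (0.51 and -0.34) and for total counts (-0.39 and 0.33), and Junb has the opposite sign to Fos and Jun for Slc26a5 (0.28).

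The summed rare markers of other cell types had a rho of 0.32 with the score and 0.26 with Fos. For mesenchyme markers, at 0 to 330 CPM per cell (median 4.79), the sum had 0.15 with the score and 0.37 with Fos. For endothelium markers, at 0 to 90.5 CPM (median 0), these values were 0.25 and 0.43. Supporting cell markers, of which 9 of 10 were rare, had 0.33 with the score and 0.14 with Fos. Immune markers, at 0 to 1570 CPM (median 0.0856), had 0.08 and -0.08. In the same order, neuron markers had -0.18 and 0.00, glia -0.11 and -0.10, blood 0.14 and 0.06, and stria 0.07 and 0.04. Without the 25 cells rich in rare markers, the median rho of member pairs was 0.25 and that of Jun with Egr1 was 0.67. Both were as large without these cells, and Jund with Atf3 had 0.54 (0.48 in all cells). Pairs with Fos were lower: Fos with Ier2 had 0.33 (0.46 in all cells) and Fos with Egr1 0.35 (0.42). Fosb with Ier2 had 0.40 (0.45). Fos was then present in 56.2% of cells, Ier2 in 60.4% and Dusp1 in 54.2%, against 64.4%, 67.1% and 64.4% of all cells.

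Other primary response genes, the wider class to which the members belong, were partly undetected. Of 42 listed, 14 were present in at least 37 of 73 cells and 3 in none: Egr3, Egr4 and Fosl2. Egr2, Npas4 and Ier3 were each present in 1 cell, Arc in 2 and Fosl1 in 5, so the neuronal activity genes Arc and Npas4 were nearly undetected where Fos and Egr1 were common. Nr4a2 was present in 24 cells and Nr4a3 in 17, both more often than Nr4a1. The most frequent were the antiproliferative gene Btg2 (median 330 CPM, 72 cells), Ppp1r15a, a subunit of the eIF2-alpha phosphatase (428 CPM, 71 cells), Btg1 (138 CPM, 70 cells) and the zinc-finger factor Klf6 (203 CPM, 67 cells).

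Against the score, 19 of the 26 list genes averaging at least 10 CPM were positive and 7 negative, with a median of 0.10. Over all 8609 genes outside the members, 4617 were positive and 3991 negative, with a median of 0.01. None of the 26 was at 0.3 or more, against 0.952% of genes, and the highest were Csrnp1 and Dusp6, both at 0.28. Single members had closer ties. Junb was at 0.3 or more with 8 of the 26, against 2.93% of genes, led by the small Maf protein Maff and by Ppp1r15a, both at 0.50. It was at -0.3 or less with 2 of the 26, Ccn2 (-0.37) and Ccn1 (-0.33), against 1.85%. Atf3 was at 0.3 or more with 4 of the 26, against 1.75%, with Maff and Csrnp1 at 0.45 and Ppp1r15a at 0.44. Jund was at 0.3 or more with 4 of the 26, against 1.34%, with Ppp1r15a at 0.49, Csrnp1 at 0.40 and Maff at 0.37. Fos was at 0.3 or more with 2 of the 26, against 3.81%, namely Klf4 at 0.42, a gene present in 8 cells, and Ccn1 at 0.31. It was at -0.3 or less with 2 as well, Btg1 (-0.33) and Plk3 (-0.32), against 2.83%. Maff (0.55), Btg1 (0.47), Ppp1r15a (0.42) and Klf6 (0.36) were themselves higher in cells with more Slc26a5, and Ccn1 had -0.39.

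Of 18 other leucine zipper genes that can partner AP-1 proteins, 11 averaged at least 10 CPM. With the score, 8 of these were positive and 3 negative (median 0.07), and none reached 0.3, against 0.952% of genes. Atf4, the translation-controlled stress factor, was present in all 73 cells (median 209 CPM), and Ddit3, its target CHOP, in 69 (199 CPM). Atf3 had 0.36 with Ddit3 and 0.32 with Atf4, and Egr1 had 0.49 with Atf6, the endoplasmic reticulum stress sensor. Of 24 genes upstream of the members, 19 could be compared, with 8 positive and 11 negative (median -0.06). Mapk8, which encodes the Jun kinase JNK1, stood alone among the 19 at 0.3 or more, with 0.42, against 0.952% of genes. Present in 42 cells, it had 0.42 with Egr1, 0.39 with Dusp1 and 0.35 with Jun. Serum response factor, Srf, was present in 9 cells. Of its partners, Mrtfb was present in 42 cells, Elk4 in 40, Elk3 in 15, and Elk1 and Mrtfa in 7 each.

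Heat shock genes had the highest median with the score among the 4 lists. Of 13 compared, 9 were positive and 4 negative with the score, with a median of 0.19, and 2 were at 0.3 or more, against 0.952% of genes: the co-chaperone Dnajb1 (0.43, present in 69 cells) and Hspa5, the chaperone BiP of the endoplasmic reticulum (0.37, present in all 73). Hspa5 had 0.48 with Jund, 0.47 with Atf3, 0.42 with Jun and 0.39 with Egr1, but 0.10 with Fos. The inducible Hsp70 genes Hspa1a and Hspa1b, present in 12 and 17 cells, went with other members: Fos had 0.46 with Hspa1a and 0.49 with Hspa1b, and Ier2 had 0.42 and 0.41. Hspa1a and Hspa1b are near-identical copies that can share reads. For Atf3 the values were -0.17 and -0.16. Corrected for the mean of the heat shock list, Fos had -0.39 with Slc26a5 and Jun -0.26, while Ier2 had -0.04 (-0.18 uncorrected) and Jund 0.18 (-0.01 uncorrected).

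Over all 8609 genes outside the members, none reached 0.5 or -0.5 with the score. The highest was Rabepk, an effector of the GTPase Rab9, at 0.496, followed by Selenoi and Dnajb1 at 0.434, Mapk8 and Trim17 at 0.418 and Rps6ka5 at 0.407. Rps6ka5 encodes MSK1, a kinase that phosphorylates histone H3 at immediate early genes, and was present in 20 cells. C9orf72, Mad1l1, Rab28 and Rnf10 completed the 10 highest (0.389 to 0.375). The lowest were Wdr70 at -0.428, Hmgn2 at -0.392, Rsbn1l at -0.390, Psma3 at -0.388 and Kcmf1 at -0.387.

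Taken singly, the members had different nearest genes. For Fos these were Zmym1 (0.62, present in 24 cells), Rnf165 (0.59, 19 cells) and Polg2 (0.58, 29 cells), all sparse, and 12 genes were at 0.5 or more (0.139%). For Jun, after Egr1, they were the synaptic release factor Unc13a (0.50, 25 cells), Rabepk (0.49) and Fgf12 (0.49). For Egr1, after Jun, they were Atf6 (0.49), Rabepk (0.49) and Trim17 (0.47). For Atf3, with Jund (0.48) left out as a member, they were genes present in nearly all cells, namely the co-chaperone Ptges3 (0.53, 73 cells), the succinate dehydrogenase subunit Sdhc (0.50, 72 cells) and Mrfap1 (0.47, 73 cells). Chosen after the values were seen, the nearest of Junb were Tgfb2 (0.58, 25 cells), Nfkbia (0.58, 61 cells) and the MHC light chain B2m (0.56, 28 cells), and the lowest for Fos were the cytochrome oxidase subunit Cox6a1 (-0.56, 73 cells), the histone gene H3f3b (-0.55, 73 cells) and Gadd45a (-0.55, 52 cells).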

How the data were processed

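RNA of 73 single cells was read with a full-length Smart-Seq HT protocol and tagmentation, without molecular identifiers, so counts include PCR copies. The deposited table holds raw counts, 1 row a gene and 1 column a cell. The build mm10 and the tools featureCounts 2.0.1, HISAT2 2.2.1 and StringTie 2.2.1 stand in the submitters' processing notes, while tool settings and annotation release are not given in the sources used here. A reporter row, WPRE, was kept out of the totals, and 0 columns lacked a sample. The lowest chi-square per gene over 2628 library pairs was 405, so no library was a copy of another.

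Counts were divided by library totals (CPM). Scores and corrections used log2(CPM + 1), and correlations are Spearman's over 73 cells for the 8619 genes averaging at least 10 CPM. A single count weighs 0.0907 CPM at the lowest library total and 0.0269 CPM at the highest. The lists use the newer symbols for 4 genes (such as Ccn1 for Cyr61), matched through RefSeq synonyms. Variability was measured over a lowess trend (span 0.3). No p-value was made and no count model was fitted. edgeR 4.0.16 and DESeq2 1.42.0 (R 4.3.3) gave other scalings only. The correlation step was tested on simulated data.

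The members, lists and thresholds were chosen with earlier results of these data known. The text names the members, Slc26a5, list genes at the ends of their lists, the 10 genes most and 5 least correlated with the score and the 3 genes most like Fos, Jun, Egr1 and Atf3, skipping genes without an official name. Other genes are named as chosen later. Scripts used matplotlib 3.10.9, statsmodels 0.14.6, scipy 1.17.1, pandas 2.3.3 and numpy 2.4.6 in Python 3.11.15.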

Additional observations from a re-analysis of the deposited data

Results flagged for a closer look

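The row WPRE, a reporter element outside the gene rows, had counts in every cell, from a lowest count of 725 to 8933 (median 2609), or 44.1 to 429 CPM. It was picked out because it is a signal outside the genes compared. Its rank correlation was -0.03 with the score and -0.05 with Fos.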

How the results depend on the processing

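Of 571 values of 42 results under 32 alternatives, 523 stayed within 0.1 in rho, or within 1.5 times for a count or the 95% interval for a share, and 48 moved further. The median rho of member pairs was 0.22 to 0.27, the pairs at 0.3 or more 14 to 20, Jun with Egr1 0.57 to 0.67, Fos with Slc26a5 -0.61 to -0.28 and Junb with Slc26a5 0.08 to 0.31.

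The score had -0.22 with Slc26a5, but -0.34 corrected for library number, -0.07 without Fos in the score and -0.38 without the cells rich in rare markers. Its 0.15 with mt share became 0.26 corrected for library number, 0.26 without Atf3 and -0.02 without Fos. Its -0.04 with total counts became -0.17 without Atf3. Genes at 0.3 or more with the score numbered 82, but 150 over all genes with a count, 135 at a mean of 1 CPM and 248 without the marker-rich cells. Genes at -0.3 or less numbered 50, but 100 over all genes with a count and 152 without the marker-rich cells. Counts over all genes and at a mean of 1 CPM cover more genes by construction. Without the marker-rich cells 48 cells remain in place of 73, and a fixed limit of rho is passed more readily over fewer cells. How much of the higher counts this makes up was not tested, nor was the cause of the other shifts. Genes at 0.5 or more with Slc26a5 numbered 116, but 40 corrected for mt share and 15 for ribosomal protein share, and those at -0.5 or less 75, but 29 and 12. At 50 CPM, 1 member was present in every cell in place of 2.

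No paired analysis was possible because all cells belong to 1 group. With no replicate and no named animal, differences between animals, litters and days cannot be told apart from those between cells. The intervals treat cells as independent draws, so they cover counting error over cells only.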

Other observations

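Gm26802, a non-coding RNA gene on the same strand as Fosb and 1926 bases from it (chr7:19298260-19300770, mm10), was present at 10 CPM or more in 11 cells, with a highest value of 297 CPM. Its rank correlation was 0.24 with Fosb, 0.62 with Fos and -0.44 with Slc26a5. It was picked after its values were seen, and in so sparse a gene these values are descriptions only.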
